A study of Rattus norvegicus with 15 samples.

Results

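Integrins are receptors that cells use to hold on to the matrix around them and to read its composition. Each receptor pairs 1 alpha with 1 beta subunit, and the alpha subunit largely sets which ligand is bound. Itga3 and Itga7 bind laminins, the main proteins of the muscle basement membrane, Itga1 and Itga10 bind collagens, and Itga5, Itga8 and Itgav bind proteins with an Arg-Gly-Asp (RGD) motif such as fibronectin. Itgax belongs to the leukocyte integrins. Itgb1 can pair with all of these alpha subunits except Itgax, while Itgb5 pairs with Itgav. In muscle, the receptor of Itga7 and Itgb1 links the fiber to laminin and is known as a regulator of myoblast migration and fusion.

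The 10 integrin subunits described here were taken by gene symbol from a count table of 11574 genes, where each symbol was found in 1 place. They are Itga1, Itga3, Itga5, Itga7, Itga8, Itga10, Itgav, Itgax, Itgb1 and Itgb5. The cells were H9c2, a myoblast line from embryonic rat heart, with no gene altered. All sample titles name H9c2, while the cell line tag names H9c2 for T0 and counts upward through the other samples. The titles were followed, and all libraries were taken as 1 cell line. The libraries formed 5 groups of 3. T0 was taken 24 h after seeding in 10% fetal bovine serum (FBS). The medium was then lowered to 1% FBS for 7 or 14 days, without (T7-RA, T14-RA) or with (T7+RA, T14+RA) 1 µM all-trans retinoic acid (RA), an active form of vitamin A that binds nuclear receptors, added daily. RA was dissolved in DMSO, and whether the cultures without RA received DMSO is not stated, so both cannot be told apart. The drop in serum and the time in culture also cannot be told apart, since T0 was the only group in 10% FBS.

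Counts per library ranged from 508397 to 1030820, and a gene had a median of 22 counts in a library, so members with few counts are given as counts. Of the skeletal muscle markers 8 of 10 were in the table, and of the cardiac markers 4 of 10, without Nkx2-5, Tbx5, Myh6, Nppa, Nppb and Myl7. Vim, which many cell types make, held most of the summed skeletal markers at T0, so the sum is given without it, a choice made after its value was seen. The other 7 markers summed to 218 to 289 CPM (counts scaled to a common library size) at T0, 2443 to 2934 in T7-RA and 1361 to 1654 in T7+RA. At day 14 they summed to 9150 to 9476 CPM without RA and 3910 to 4639 CPM with it. The later sums were mostly Acta1 and Myh3, and the markers did not all move alike. Of the 8 with Vim, edgeR called 6 raised and 1 lowered at T14, and 0 raised and 4 lowered with RA, where Ckm, Des, Myod1 and Myog were not called. Over all genes 8.47% rose and 8.85% fell at T14, and 3.33% rose and 3.07% fell for RA. The 4 cardiac markers summed to 67.5 to 83.8 CPM at T0. They summed to 408 to 465 CPM in T7-RA, 322 to 348 in T7+RA, 944 to 1088 in T14-RA and 653 to 761 in T14+RA. These sums were mostly Tnnt2. Pln, with 96 counts in all, had a positive RA term that was not called (1.15 on the log2 scale, edgeR adjusted p = 0.0208). Those of Tnnt2 and Gata4 were negative and not called (-0.29 and -0.099). Of the 4 cardiac markers, edgeR called 2 raised and 0 lowered at T14, beside the shares of all genes given above. With RA it called 0 raised and 1 lowered, Actc1 (-2.73 on the log2 scale, adjusted p = 2.18e-18). These are bulk cultures, where fewer cells of a kind and less RNA per cell cannot be told apart. The part of cell composition in the changes below was not tested.

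The retinoic acid receptor, the nuclear receptor that RA binds, is known to recognise repeats of AGGTCA. In RefSeq, with build GRCr8, 9 of the 10 members had a promoter window of 250 bases before to 50 after the start. Itga7 had none. The 250 bases before the start are shown for Itgax, which had the largest rise with RA, for Itga8, the next largest, and for Itga10, which fell. They lie at chr1:192149799-192150048 on the plus strand (Itgax), chr17:80410634-80410883 on the minus strand (Itga8) and chr2:186871461-186871710 on the plus strand (Itga10), each written 5′ to 3′ on the strand of the gene. Capitals mark a match to the repeat GGTCANNNGGTCA.
Itgax: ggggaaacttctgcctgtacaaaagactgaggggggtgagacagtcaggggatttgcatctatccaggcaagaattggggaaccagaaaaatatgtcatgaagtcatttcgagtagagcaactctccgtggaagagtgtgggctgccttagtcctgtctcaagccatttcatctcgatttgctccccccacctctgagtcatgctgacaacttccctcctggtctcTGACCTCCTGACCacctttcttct
Itga8: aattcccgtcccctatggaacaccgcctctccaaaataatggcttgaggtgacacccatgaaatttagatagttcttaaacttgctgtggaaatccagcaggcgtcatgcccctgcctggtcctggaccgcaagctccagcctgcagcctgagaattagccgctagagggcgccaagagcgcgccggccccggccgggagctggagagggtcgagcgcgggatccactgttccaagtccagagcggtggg
Itga10: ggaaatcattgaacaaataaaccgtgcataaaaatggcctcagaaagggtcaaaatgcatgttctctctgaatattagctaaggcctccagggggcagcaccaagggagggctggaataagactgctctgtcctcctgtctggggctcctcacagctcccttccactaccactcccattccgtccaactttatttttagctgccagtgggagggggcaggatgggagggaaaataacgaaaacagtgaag

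Both strands of the whole window were searched. The repeat GGTCANNNGGTCA, with half-sites set 2 bases apart once the first A of AGGTCA is counted, was found in 0.0956% of 33469 promoters and in 1 member, Itgax, on the minus strand at bases -24 to -12 from the start. The single half-site AGGTCA was in 16.2% of all promoters and again in 1 member, at the overlapping bases -24 to -19 of Itgax. Repeats spaced as GGTCANNGGTCA, GGTCANNNNGGTCA, GGTCANNNNNGGTCA and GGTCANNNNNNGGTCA were in 0.164%, 0.0837%, 0.0717% and 0.0747% of promoters and in 0 members. GGGCGG, the core of the Sp1 site, was in 33.1% of promoters and in 4 members (Itga3, Itga5, Itgav and Itgb1), and the E-box CAGCTG in 15.1% and in 1 member, Itga5. These letters are a description of the windows, chosen with the RA changes known, and no binding was measured.

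Most of the 10 members were higher with RA. The rise was largest for Itgax and next for Itga8 on both days. Itga3 and Itga7 followed at day 7, and Itga7 at day 14. It was under 1 on the log2 scale for both beta subunits. Summed by class, the RA difference on the log2 scale was 2.00 at day 7 and 1.50 at day 14 for the laminin subunits, 0.49 and 0.64 for the collagen subunits and 0.59 and 0.28 for the RGD subunits. With each library left out in turn, these day 7 values were 1.96 to 2.04, 0.38 to 0.74 and 0.57 to 0.64. The day 14 values were 1.45 to 1.53, 0.53 to 0.83 and 0.22 to 0.35. Both laminin members were called on both days and 0 of 2 collagen members on either, while 2 of 3 RGD members were called at day 7 and 1, Itga8, at day 14. With Itga11 added, a collagen receptor subunit outside the members, the collagen values were 1.13 and 1.05. With Itga6 added, a laminin receptor subunit outside the members, the laminin values were 1.59 and 1.30. Across the 3 libraries of a day, all 10 members differed without overlap between the +RA and -RA groups at day 7, against 24.4% of all genes, 9 of them higher with RA and Itga10 lower. At day 14, 8 of 10 did not overlap, against 27.2% of all genes, and Itga5 and Itgav overlapped. With edgeR and an adjusted p under 0.001, 7 members rose with RA and 0 fell at day 7, where 3.17% of all genes were called (1.87% up and 1.3% down). At day 14, 6 rose and 0 fell, where 4.81% of all genes were called (2.46% up and 2.35% down). With limma on quantile-normalized counts the day 7 calls of Itga5, Itga8 and Itgb1 were lost (adjusted p = 0.0131, 0.00342 and 0.106), as were the day 14 calls of Itga3, Itga8, Itgb1 and Itgb5 (adjusted p = 0.0128, 0.0179, 0.0155 and 0.0168). The median log2 change of the 10 members was 0.94 at day 7 and 0.77 at day 14, beside -0.021 and -0.0036 over all genes. The members were chosen with earlier results of these data known, so these counts and medians are descriptions and no test. Both days share no control library with each other, and T0 entered neither contrast.

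**Figure D1:**
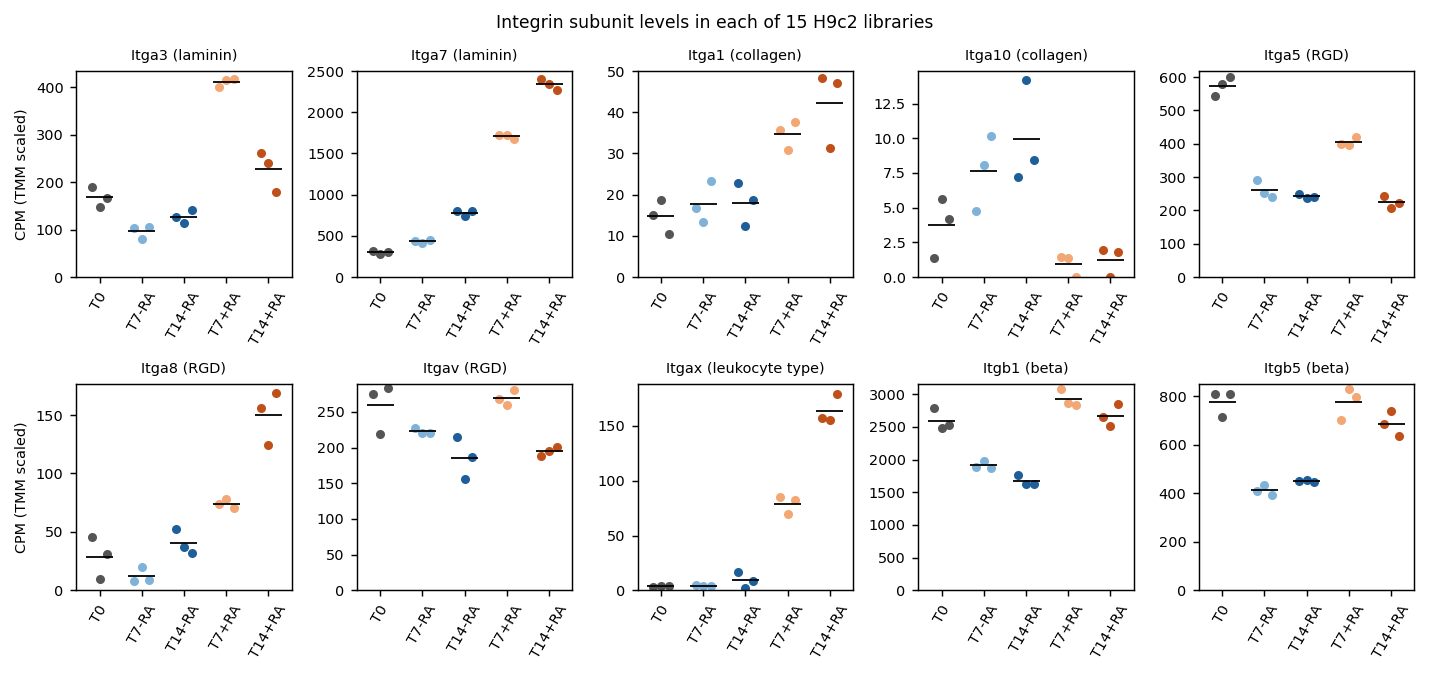
CPM (vertical axis, TMM scaled, a separate linear scale from 0 for each gene) of the 10 integrin subunits in each of 15 libraries. Points are libraries and bars are means of 3. Itga7 rose from 278 to 315 CPM at T0 to 2272 to 2399 CPM in T14+RA with no overlap between any 2 groups, while Itga5 was highest at T0.

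Itga7, the muscle laminin receptor subunit, was the highest alpha subunit per kilobase in every group except T0. Its level was 315, 278 and 306 CPM in the T0 libraries, 439, 414 and 444 CPM in T7-RA, and 804, 744 and 799 CPM in T14-RA. With RA it was 1722, 1721 and 1680 CPM at T7 and 2399, 2340 and 2272 CPM at T14. The 5 groups formed 5 separate levels, T0 lowest and T14+RA highest, and each T7+RA library exceeded every library without RA. RA raised it by 1.98 on the log2 scale at day 7 (SE 0.0925, edgeR adjusted p = 3.19e-27) and by 1.58 at day 14 (SE 0.0888, edgeR adjusted p = 3.30e-23). The difference between days, -0.40, did not pass (edgeR adjusted p = 0.156). Reads of Mettl7b, which overlaps Itga7 in RefSeq, came to 26 counts in all beside 11764 for Itga7.

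Itga3, the other laminin binding member, took a different course. It was at 190, 148 and 166 CPM at T0, 104, 80.6 and 105 CPM at day 7 without RA (T7-RA) and 126, 113 and 142 CPM at day 14 (T14-RA). With RA it reached 401, 415 and 418 CPM at T7 and was back at 262, 240 and 179 CPM at T14. Every T7+RA library was above all others, and the T14+RA libraries were above T14-RA but overlapped T0. The RA change was 2.09 at day 7 (95% interval 1.82 to 2.36) and 0.86 at day 14 (0.58 to 1.14) on the log2 scale, both called by edgeR (adjusted p = 2.90e-20 and 2.50e-06). From T7+RA to T14+RA it fell by 0.83 (edgeR adjusted p = 2.04e-07). The ratio of Itga7 to Itga3, per kilobase of transcript, had medians of 1.79 at T0, 4.12 and 6.17 at days 7 and 14 without RA, and 4.02 and 9.43 with it.

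**Figure D2:**
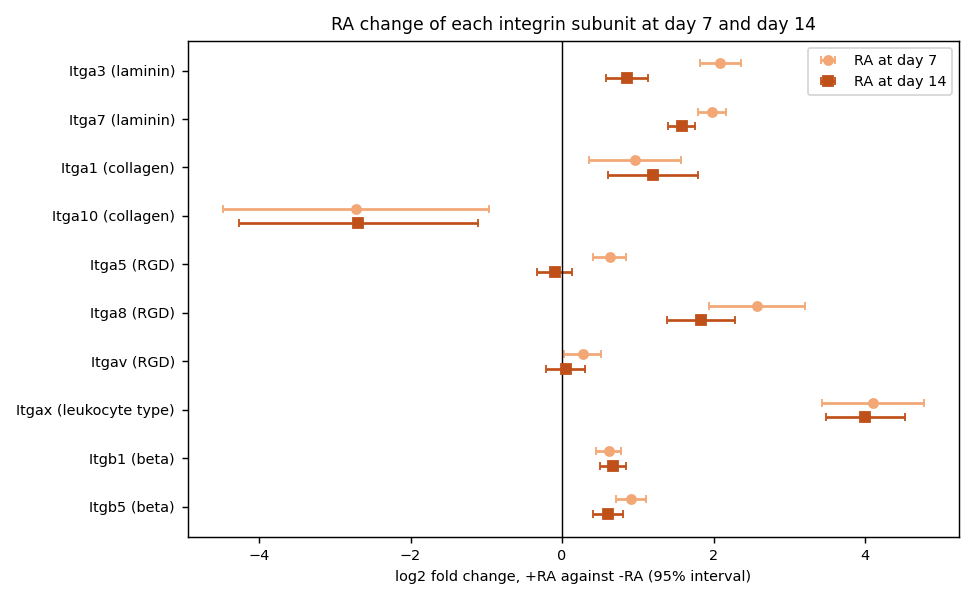
Log2 fold change of +RA against -RA (horizontal axis) for each member at day 7 (circles) and day 14 (squares), with 95% intervals from edgeR. Itgax lies near 4 on both days, Itga3 and Itga5 have lower values at day 14 than at day 7, and the wide intervals of Itga10 rest on 47 counts in all.

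The collagen receptor subunits were among the lowest members and differed in opposite directions with RA. Itga1 was at 15.2, 18.8 and 10.5 CPM at T0, 16.7, 13.4 and 23.2 CPM at day 7 without RA (T7-RA) and 22.8, 12.4 and 18.6 CPM at day 14 (T14-RA). Cultures with RA held 35.6, 30.9 and 37.7 CPM at T7 and 48.2, 31.4 and 47.1 CPM at T14. The 6 libraries with RA were all above the 9 without. Neither day alone passed (0.96 and 1.20 on the log2 scale, edgeR adjusted p = 0.0371 and 0.00251), but the RA term, which takes both days together in an additive model with T7 and T14 terms, was 1.08 and passed (SE 0.212, edgeR adjusted p = 7.76e-05). This call was lost with limma on quantile-normalized counts (adjusted p = 0.00113). Pelo, a gene overlapping Itga1 in RefSeq, had an RA term of -0.066 (edgeR adjusted p = 0.854).

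Itga10 had 47 counts in all. The libraries held 1, 3 and 2 counts at T0, while T7-RA held 4, 6 and 7 and T14-RA 6, 8 and 5. With RA they held 1, 1 and 0 counts at T7 and 2, 0 and 1 at T14. T0, T7+RA and T14+RA were thus at the floor of 3 counts per library, and the libraries without RA at days 7 and 14 were all above it. A library with 0 counts, T7+RA replicate 3, allows up to 5.14 CPM. The ratio of T7-RA to T7+RA was 7.60 (17 against 2 counts, 95% counting interval 1.80 to 67.8) and that of T14-RA to T14+RA was 7.09 (19 against 3 counts, 2.09 to 37.4). The RA term was called (edgeR adjusted p = 0.000321), and this call was lost without T7-RA replicate 3, T14-RA replicate 2, T7+RA replicate 3 or T14+RA replicate 2 (adjusted p = 0.00132, 0.00213, 0.00128 and 0.00162) and with DESeq2 (adjusted p = 0.00328). Neither day passed alone (edgeR adjusted p = 0.0412 and 0.0145).

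Among the RGD binding subunits, Itga5, the classical fibronectin receptor subunit, fell with time and was called for RA at day 7 and not at day 14. It was at 542, 578 and 600 CPM at T0, 290, 253 and 240 CPM at day 7 without RA (T7-RA) and 249, 237 and 240 CPM at day 14 (T14-RA). The RA treated libraries were at 399, 395 and 420 CPM at T7 and 244, 207 and 223 CPM at T14. All 12 later libraries were below T0, the T7+RA libraries were above T7-RA, and T14+RA overlapped T14-RA. The RA change was 0.63 at day 7 (edgeR adjusted p = 1.43e-05) and -0.099 at day 14 (95% interval -0.34 to 0.14, edgeR adjusted p = 0.720). Itga3 and Itga5 were the only members for which edgeR called a difference in RA change between days, at an adjusted p under 0.05. These are 2 of 10 and both smaller at day 14, where 0.743% of all genes were called (0.285% up and 0.458% down).

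Itga8, a subunit that binds nephronectin and fibronectin, rose with RA on both days. Its libraries were at 45.5, 9.38 and 31.4 CPM at T0, 8.35, 20.2 and 8.71 CPM at day 7 without RA (T7-RA) and 52.9, 37.2 and 32.2 CPM at day 14 (T14-RA). Under RA it was at 74.1, 77.9 and 70.3 CPM at T7 and 156, 124 and 169 CPM at T14. The T0 libraries were widely spread, from 5 to 33 counts, and every library with RA was above every library without. The RA change was 2.57 at day 7 (SE 0.314, edgeR adjusted p = 1.97e-08) and 1.83 at day 14 (SE 0.225, edgeR adjusted p = 1.62e-08).

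Itgav, which pairs with Itgb1, Itgb5 and other beta subunits, was not called for RA on either day. It was at 276, 220 and 283 CPM at T0, 228, 220 and 221 CPM in T7-RA, 215, 156 and 186 CPM in T14-RA, 268, 260 and 281 CPM in T7+RA and 188, 195 and 201 CPM in T14+RA. The 95% interval of the RA change was 0.032 to 0.51 at day 7 and -0.21 to 0.31 at day 14 on the log2 scale, and neither was called (edgeR adjusted p = 0.203 and 0.901). The ratio of Itga5 to Itga8 per kilobase had medians of 25.4 at T0, 36.6 and 8.50 at days 7 and 14 without RA, and 7.18 and 2.08 with it. It ranged from 15.9 to 82.1 over the T0 libraries and from 16.7 to 46.3 over T7-RA, which overlapped, and from 1.76 to 2.23 over T14+RA.

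Itgax, the alpha subunit of a receptor of myeloid cells, had the largest RA change of the members. It had 2, 2 and 2 counts at T0, while T7-RA had 4, 3 and 3 and T14-RA 14, 1 and 5. With RA it had 60, 52 and 48 counts at T7 and 163, 99 and 99 at T14. All 6 libraries with RA were above the 9 without, while T0 was at the floor of 3 counts. The ratio of T7+RA to T7-RA was 17.9 (160 against 10 counts, 95% counting interval 9.48 to 38.0), and that of T14+RA to T14-RA was 16.1 (361 against 20 counts, 10.3 to 26.7). Of the 20 counts of T14-RA, 14 were in replicate 1, and without that library the day 14 change on the log2 scale was 4.92 in place of 4.01 (edgeR adjusted p = 3.59e-20).

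The usual partner of Itgax, Itgb2, was not in the table, nor were Ptprc, Cd68, Itgam, Csf1r, Adgre1, Lyz2, Aif1 and Fcer1g. Of the 10 myeloid markers only Cd14 was present, at 10.5 to 22.5 CPM at T0, with 16.7 to 29.6 CPM for T7-RA and 16.9 to 28.8 CPM for T14-RA. With RA, Cd14 was at 22.8 to 27.4 CPM at T7 and 37.6 to 58.1 CPM at T14, so it was higher in T14+RA, where Itgax was highest. Its RA term was 0.61 and was not called (edgeR adjusted p = 0.0463), and the part of myeloid cells in the Itgax levels was not tested. Itgam and Itgad, the neighbours of Itgax in RefSeq, were not in the table.

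Both beta subunits were lower than T0 in the cultures without RA and higher with RA than without it. Itgb1, the common beta chain, was at 2782, 2482 and 2522 CPM at T0, 1888, 1970 and 1877 CPM at day 7 without RA (T7-RA) and 1757, 1628 and 1621 CPM at day 14 (T14-RA). With RA it was at 3083, 2863 and 2837 CPM at T7 and 2645, 2515 and 2846 CPM at T14. The T14+RA libraries overlapped T0, and both +RA groups were above both -RA groups. RA raised Itgb1 by 0.62 and 0.68 on the log2 scale (edgeR adjusted p = 4.88e-08 and 3.19e-09), with a difference between days of 0.061 (95% interval -0.18 to 0.30). With limma on quantile-normalized counts neither day was called (adjusted p = 0.106 and 0.0155), nor was the RA term (0.53, adjusted p = 0.00279).

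Itgb5, which joins Itgav in a vitronectin receptor, was at 808, 713 and 807 CPM at T0, 408, 435 and 391 CPM at day 7 without RA (T7-RA) and 450, 453 and 447 CPM at day 14 (T14-RA). The RA libraries were at 701, 828 and 795 CPM at T7 and 685, 740 and 635 CPM at T14. Both +RA groups overlapped T0 and lay above every -RA library of days 7 and 14. The change with RA was 0.91 at day 7 and 0.61 at day 14 on the log2 scale (edgeR adjusted p = 5.52e-11 and 3.52e-06). The annotation lists Itgb5 as a processed transcript and not as protein coding. The gene nearest to it in profile, AC133403.1, lies in the same band 11q22 with 2998 counts and an RA term of 0.74, and whether both share reads was not tested.

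Time moved the members in both directions. The additive model measures day 7 and day 14 against T0 and holds 1 RA change for both days. For Itga3 and Itga5 edgeR called the RA change different between the days, so their terms mix the courses with and without RA. Without RA, Itga5 had means of 573, 261 and 242 CPM at T0, T7-RA and T14-RA, and Itga3 of 168, 96.3 and 127 CPM. From T7-RA to T14-RA neither was called (-0.11 and 0.40 on the log2 scale, edgeR adjusted p = 0.714 and 0.120). At T7, 1 member rose and 3 fell, where edgeR called 8.73% of all genes (4.29% up and 4.44% down). Itga7 rose by 0.64 on the log2 scale, and Itga5 fell by 0.95, Itgb5 by 0.84 and Itgb1 by 0.46. At T14, 1 rose and 4 fell, where 17.3% of all genes were called (8.47% up and 8.85% down). Itga7 rose by 1.28, and Itga5 fell by 1.43, Itgb5 by 0.87, Itgb1 by 0.62 and Itgav by 0.53 (edgeR adjusted p = 8.61e-15, 9.72e-15, 3.84e-10, 5.17e-08 and 0.000439). The T7 call of Itgb1 was lost without T0 replicate 1 (edgeR adjusted p = 0.00381), when libraries were scaled by size only (0.00199) and with limma on quantile-normalized counts (0.219). The T14 call of Itgav was lost without T0 replicate 1, T0 replicate 3 or T14-RA replicate 2 (edgeR adjusted p = 0.00987, 0.00555 and 0.00332), with library size only (0.00443), among genes with at least 10 counts in every library (0.00131) and with limma on quantile-normalized counts (0.0150). That last setting also lost the T7 calls of Itga5, Itga7 and Itgb5 (limma adjusted p = 0.00673, 0.00354 and 0.00449) and the T14 calls of Itgb1 and Itgb5 (0.00939 and 0.00198).

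In the second week, without RA, 2 of 10 members rose from T7 to T14 and 0 fell, where edgeR called 2.95% of all genes (1.87% up and 1.09% down). They were Itga7, by 0.86 on the log2 scale (edgeR adjusted p = 1.08e-10), and Itga8, by 1.75 (edgeR adjusted p = 0.000439). With RA, 3 rose and 2 fell, where 4.67% of all genes were called (2.4% up and 2.26% down). Itgax rose by 1.05, Itga8 by 1.01 and Itga7 by 0.45, while Itga5 fell by 0.84 and Itga3 by 0.83 (edgeR adjusted p = 5.89e-06, 0.000252, 4.64e-05, 3.04e-08 and 2.04e-07). The call of Itga8 without RA was lost when T7-RA replicate 1 or 3 or T14-RA replicate 1 or 2 was left out (adjusted p = 0.0116, 0.00704, 0.0211 and 0.00138), and under limma with voom weights (0.00284), with a trend (0.00163) or on quantile-normalized counts (0.0459). With RA it was lost without any single library of T7+RA or without T14+RA replicate 1 or 3 (adjusted p from 0.00292 to 0.00501), and the call of Itga7 was lost without T7+RA replicate 3 or T14+RA replicate 1 (adjusted p = 0.00116 and 0.00121). The call of Itga8 with RA was also lost with DESeq2 (adjusted p = 0.00209), and those of Itga8 and Itgax with limma-trend (0.0522 and 0.0576). With limma on quantile-normalized counts all 5 calls with RA were lost, with adjusted p of 0.223 for Itgax, 0.222 for Itga8, 0.0360 for Itga7, 0.00160 for Itga5 and 0.00909 for Itga3.

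**Figure D3:**
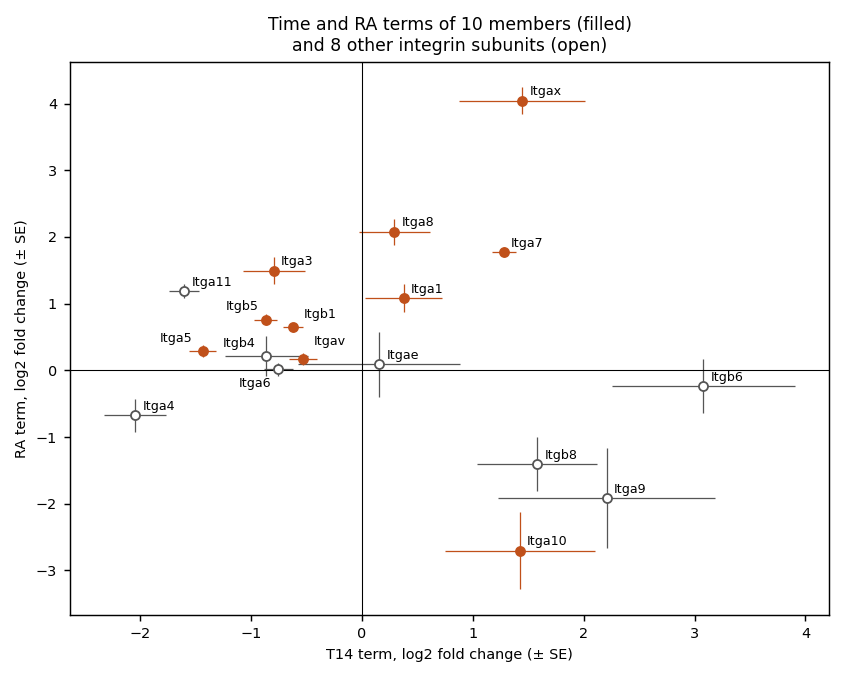
T14 term against T0 (horizontal axis) and RA term (vertical axis), both log2 fold changes with their SE from the additive edgeR model, for the 10 members (filled) and 8 other integrin subunits (open). Itga7 is at 1.28 and 1.77, while Itgb1, Itgb5, Itga3, Itga5 and Itga11 lie to the left of 0 and above it. The model holds 1 RA change for both days, and edgeR called this change different between the days for Itga3 and Itga5.

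Levels between genes were compared as CPM per kilobase of the longest listed transcript. Within T0 the order from high to low was Itgb1, Itgb5, Itga5, Itgav, Itga7, Itga3, Itga8, Itga1, Itgax and Itga10. Only the neighbours Itga8 and Itga1, and Itgax and Itga10, overlapped. The T0 means were 710 ± 44.6 CPM per kilobase for Itgb1, 200 ± 14 for Itgb5, 130 ± 6.59 for Itga5 and 59.1 ± 3.81 for Itga7 (SD, n = 3). In T14+RA the order was Itgb1, Itga7, Itgb5, Itgav, Itga5, Itga3, Itgax, Itga8, Itga1 and Itga10, with Itga7 at 461 ± 12.6 and Itga5 at 51.2 ± 4.18 CPM per kilobase (SD, n = 3). There Itga5, Itga3 and Itgax overlapped as neighbours. The sum of the 8 alpha members relative to Itgb1, per kilobase, had medians of 0.433 at T0, 0.475 and 0.684 at days 7 and 14 without RA, and 0.808 and 0.988 with it.

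By ligand class, the RGD binding subunits held most of the summed level of the member alpha subunits at T0 and in T7-RA, and the laminin binding subunits held most of it in T14-RA and in both groups with RA. Of the summed CPM per kilobase of the 8 alpha members, the laminin class held 29.5% ± 1.41 at T0, with 43.1% ± 1.53 for T7-RA and 58.4% ± 1.94 for T14-RA (SD, n = 3). With RA it held 66.1% ± 0.980 at T7 and 73.4% ± 1.74 at T14 (SD, n = 3). The RGD class held 68.8% ± 1.35, 54.2% ± 2.16, 39.0% ± 1.47, 29.9% ± 0.735 and 20.01% ± 1.03 in the same order. The groups did not overlap in either share. Shares depend on each other and the sums follow Itga7, so these are descriptions with no test. The summed CPM of the RGD members was 496 ± 28.6 in T7-RA and 748 ± 20.2 in T7+RA (SD, n = 3), so a lower share with RA went with a higher sum at day 7.

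The collagen class held 1.34% to 2.38% of the sum in every group mean, but this rests on Itga1 and Itga10 alone. Itga11, a fibrillar collagen receptor subunit that is not among the 10 members, was at 255 to 316 CPM at T0, 99.01 to 138 CPM in T7-RA and 279 to 295 CPM in T7+RA, far above Itga1. With Itga11 added, the collagen class was at 68.1 ± 6.26 CPM per kilobase at T0, 32.2 ± 4.99 and 27.7 ± 3.43 at days 7 and 14 without RA, and 70.7 ± 1.06 and 57.6 ± 11.1 with it (SD, n = 3), against 4.29 to 10.4 for the means of the members. Itga6, a laminin binding subunit outside the members, also bears on the order of the classes. With Itga6 added, the laminin class was at 146 ± 13.8 CPM per kilobase at T0, below the 217 ± 14.4 of the RGD class, but at 153 ± 11.4 in T7-RA, above its 132 ± 6.90 (SD, n = 3). Among the members alone the RGD class was the larger one in T7-RA. The ratio of Itga7 to Itga6 per kilobase had medians of 1.06 at T0 and 15.7 in T14+RA.

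**Figure D4:**
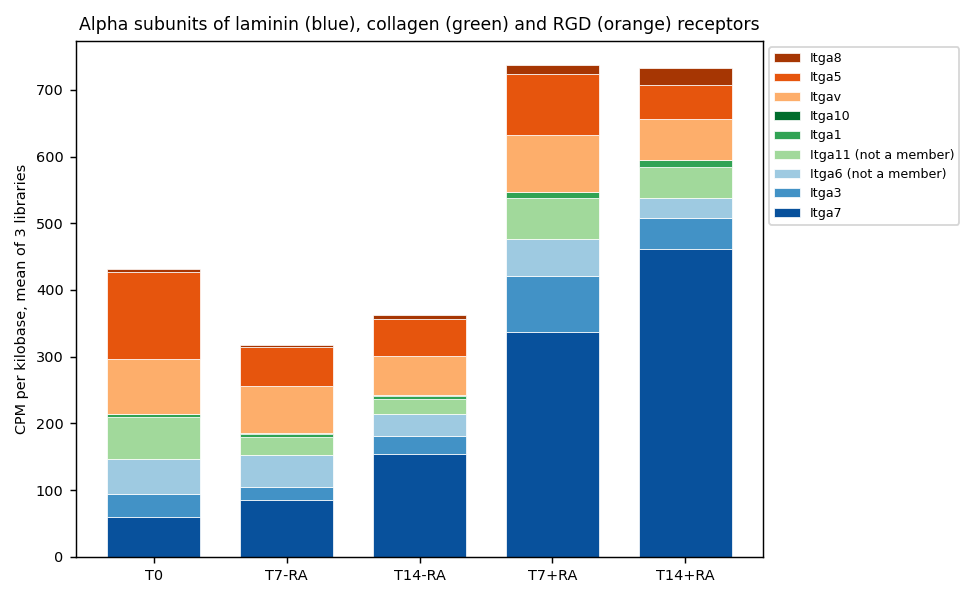
Mean CPM per kilobase of 3 libraries (vertical axis) of the laminin (blue), collagen (green) and RGD binding (orange) alpha subunits in each group, stacked, with Itga6 and Itga11 shown as non-members in pale shades. Itga7 is the largest block in all groups except T0, where Itga5 is, and the summed levels are higher with RA than without.

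Of 16 other integrin subunits, 8 were in the table and 8 were not (Itga2, Itga2b, Itgad, Itgal, Itgam, Itgb2, Itgb3 and Itgb7). For the RA term, where edgeR called 6.39% of all genes (3.33% up and 3.07% down), 1 of these 8 rose, Itga11 (1.19 on the log2 scale, SE 0.104, edgeR adjusted p = 2.60e-14), and 0 fell. Among the 10 members 7 rose and 1 fell for that term. The members were chosen with earlier results of these data known, so this contrast is a description and no test. Itga6 had an RA term of 0.014 (95% interval -0.18 to 0.21). At T14, Itga4, Itga11 and Itga6 fell by 2.04, 1.60 and 0.75. Itga9, Itgae, Itgb4, Itgb6 and Itgb8 passed neither term, with totals low enough that single libraries held 0 to 34 counts.

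The genes whose profiles were closest to each well counted member were found by the root mean square difference of centred log2 CPM over the 15 libraries, which is a description. For Itga7 they were Trim55, a sarcomere associated ubiquitin ligase of muscle (0.245), and the lincRNA AABR07002627.1 with 58 counts in all (0.298), beside a median of 1.18 over all genes. For Itga3 they were Fam20c, a kinase of secreted proteins (0.262), and Tgfb2, a TGF-beta ligand (0.291). For Itga5 they were Col4a2, a chain of basement membrane collagen (0.161), and Sh3bp4 (0.167). Itgav was closest to Eprs (0.106) and Mtmr4 (0.118), Itgb1 to Rbms1 (0.127) and Kirrel1 (0.128), and Itgb5 to AC133403.1 (0.119) and Nomo1 (0.178).

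The ligand genes were called in both directions for the RA term, where 3.33% of all genes rose and 3.07% fell. Of 11 laminin chains 6 were in the table, and for the RA term Lama5 rose (0.48) and Lama4 fell (-1.003 on the log2 scale), with 4 not called. Lama5 was at 1206 ± 142 CPM in T7-RA and 1760 ± 170 CPM in T7+RA, and Lama4 at 92.4 ± 15.6 and 46.3 ± 4.44 CPM (SD, n = 3). Lama5 was called for neither day alone (edgeR adjusted p = 0.0392 and 0.117), while Lama4 was called for both. Of 14 collagen ligands 10 were in the table, where Col11a1 and Col4a1 rose with RA (2.12 and 0.53) and Col5a3 and Col3a1 fell (-1.44 and -0.48). Of 14 RGD ligands 13 were in the table, with 5 raised and 4 lowered. Among them Ltbp1, Tnc and Ccn2 rose (0.87, 1.36 and 0.58), and Postn, Thbs1 and Fn1, the fibronectin gene, fell (-5.46, -0.73 and -0.62, all called by edgeR). Fn1 was at 13374 ± 2116 CPM at T0, 8263 ± 586 CPM in T14-RA and 4602 ± 633 CPM in T14+RA (SD, n = 3), and its T14 term was -0.80 (edgeR adjusted p = 1.06e-07).

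Inside the cell, integrins are tied to actin by adhesion linkers. Of 33 listed linkers 31 were in the table. For RA, 2 of the 31 rose and 3 fell, where edgeR called 6.39% of all genes (3.33% up and 3.07% down). The median RA term of the linkers was -0.040 on the log2 scale. Bcar1, an adhesion scaffold, rose by 1.03 and Tns3, a tensin, by 0.61, while Tln2, the talin of striated muscle, fell by 1.02, Flna by 0.50 and Vcl by 0.38 (edgeR adjusted p = 5.09e-13, 5.77e-07, 2.52e-09, 1.29e-07 and 0.000129). At T14, 2 rose and 19 fell, where 8.47% of all genes rose and 8.85% fell, with a median of -0.81 beside 0.045 over all genes. Itgb1bp2, the muscle protein melusin that binds Itgb1, was among the 2 that rose, by 3.11. Of 8 membrane partners 7 were in the table, and the tetraspanins Cd82 and Cd81 rose with RA (0.58 and 0.53, edgeR adjusted p = 5.56e-06 and 1.37e-05). The smooth muscle markers, 4 of 4 in the table, were at a summed 15231 to 16810 CPM at T0 and 3334 to 5303 CPM in every later library, and 3 of them fell at T14 alongside the linkers. Their part was not tested. Of 5 endothelial markers only Tek was present, at 0 to 6.29 CPM, and of 5 fibroblast markers 4 were present. Their sum, 18448 to 37564 CPM over all libraries, was mostly Col1a1, which was not called for RA (0.058 on the log2 scale). Of the other fibroblast markers, Dcn rose with RA by 1.08 and Thy1 and Lum fell by 0.49 and 1.88 (edgeR adjusted p = 0.000229, 5.26e-05 and 0.000484). At T14, 2 of the 4 fibroblast markers rose and 1 fell, where 8.47% of all genes rose and 8.85% fell. Their part was not tested either.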

How the data were processed

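RNA-seq counts of 15 H9c2 libraries were used, 3 in each of 5 groups, grouped from the sample labels. The study describes them as biological replicates. Raw counts were deposited by the authors without normalization, for genes whose sum over all libraries exceeded 20 (smallest sum 21). The submitters' processing notes name HISAT2, featureCounts and Rnor_6.0. The libraries were made with a strand-marking kit, but the strand setting of the counting and the annotation release are not given in the sources used here. The members and gene lists were chosen with earlier results of these data known.

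Counts were scaled by TMM and fitted in edgeR 4.0.16 (R 4.3.3) by the robust quasi-likelihood test, with a common dispersion of 0.00781. An additive model held T7, T14 and RA terms, and a model of 5 group means held each day. P-values were adjusted over all 11574 genes by the Benjamini-Hochberg method and called under 0.001, or under 0.05 for the difference between days. SE was the log2 change over the root of F. CPM per kilobase used the length of the longest transcript in the deposited annotation. A group whose libraries each held 3 counts of a gene or fewer was taken as at the floor, and ratios of such genes have 95% counting intervals (exact, conditional on the sum), which cover counting error only. The fits were also run on simulated counts with the same RA change on both days. Recovery of a difference between the days was therefore not checked.

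Genes named were the 10 members, other listed integrin subunits, up to 3 genes per list and direction with the lowest adjusted p for RA, the 2 nearest profiles of members with at least 10 counts in every library, genes that overlap or neighbour a member, and listed markers. Itgb1bp2 was named after its value was seen. Alternatives were an adjusted p of 0.05 or 0.001, limma 3.58.1 (voom, trend and quantile-normalized log2(count + 1)), DESeq2 1.42.0, other scalings and filters, a replicate block, and each library left out in turn.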

Additional observations from a re-analysis of the deposited data

Results flagged for a closer look

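The response of 2 members to RA differed between the days, by a test of the difference itself in edgeR at an adjusted p under 0.05. For Itga3 the RA change at day 14 minus that at day 7 was -1.23 on the log2 scale (95% interval -1.63 to -0.83, adjusted p = 3.73e-05), with T7+RA at 401 to 418 CPM and T14+RA at 179 to 262 CPM. For Itga5 it was -0.73 (95% interval -1.05 to -0.41, adjusted p = 0.00764). These are 2 of 10 members, both lower at day 14, where 0.743% of all genes were called (0.285% up and 0.458% down). Each library left out in turn gave -1.36 to -1.11 for Itga3 and -0.81 to -0.68 for Itga5, with adjusted p up to 0.00114 and 0.0366. With limma on quantile-normalized counts neither difference was called (adjusted p = 0.0738 for Itga3 and 0.154 for Itga5).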

How the results depend on the processing

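Counts of called members were 8 for RA, 4 for T7, 5 for T14, 7 and 6 for RA at days 7 and 14, 2 for their difference, and 2 and 5 for the second week without and with RA. With limma on quantile-normalized counts they were 6 for RA, 0 for T7, 2 for T14, 4 and 2 for RA at days 7 and 14, 0 for the difference, 1 and 0 for the second week. Genes with at least 10 counts in every library left 4 for RA and 1 and 3 for the second week, where fewer members were tested. For the second week limma-voom gave 1 without RA and limma-trend gave 1 and 3, and with each library left out the counts were 1 to 2 and 3 to 5. At an adjusted p under 0.05 they were 9 for RA, 4 for T7 and 7 for T14. For RA at days 7 and 14 they were 9 and 8, and for the second week 2 and 6. The share of all genes at that threshold was not taken for these contrasts, so these counts have no baseline. At an adjusted p under 0.001 the difference between days was 1 gene, Itga3. The log2 sum of the laminin class with Itga6 added was 1.59 at day 7 and 1.30 at day 14 (2.00 and 1.50 without), that of the collagen class with Itga11 added was 1.13 and 1.05 (0.49 and 0.64 without), both chosen after seeing the data, and that of the RGD class at day 7 was 0.53 per kilobase (0.59 in CPM). Among values of single members, 1798 kept their direction and side of the threshold, 52 lost the call, 1 gained it (Itga7 for the difference, DESeq2, adjusted p = 0.0432) and 22 changed sign. None of the 22 was called. They included Itgax at T7 (-0.22, quantile), Itga1 from T7-RA to T14-RA (-0.0045, quantile), Itgax for the difference (0.31 voom, 0.55 trend, 0.59 quantile) and Itga10 for the difference (-0.18 voom, -0.17 trend, -0.26 quantile). The others came with 1 library left out, where the values ranged from -0.086 (T0 replicate 2) to 0.91 for Itga8 at T14, from -0.057 (T14-RA replicate 2) to 0.18 for Itgav with RA at day 14, from -0.18 (T14-RA replicate 1) to 0.28 for Itga1 from T7-RA to T14-RA, from -0.18 (T14+RA replicate 1) to 0.83 for Itga10 from T7+RA to T14+RA, and from -0.52 to 0.80 (T14-RA replicate 1) for Itgax and from -0.53 (T14+RA replicate 1) to 0.47 for Itga10 for the difference. The cause was not tested. Same-numbered libraries had a mean correlation of deviations of 0.032 (-0.039 to 0.19) and share only a number, and with the replicate block the counts of called members were 8, 4, 5, 7, 6, 2, 2 and 5, the same as without it. Depth limits Itga10 and Itgax, whose counts without RA were 1 to 14 per library.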
